A study of Mus musculus with 4 samples.

Results

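The genes described here are the mouse zinc finger protein genes named Zfp followed by a number, as they appear in a list of NFIC-bound regions of the pancreas. A row of the list belonged to the set if its gene name began with Zfp and a digit, a rule that used no measured value. The set held 137 of the 9086 genes of the list and 215 of its 15824 peaks, and 133 of the 137 were protein-coding genes and 4 were pseudogenes. The remaining 8949 genes, and the 15609 peaks that belonged to them or to no gene, served as the comparison. The comparison was not limited to protein-coding genes: 7674 annotated protein-coding genes other than Zfp had a peak. NFIC, a transcription factor of the nuclear factor I family, was mapped by chromatin immunoprecipitation and sequencing (ChIP-Seq) in whole pancreas of wild-type mice aged 8 to 12 weeks whose strain was given as Mixed. The age is that of the GEO record, and the text of the study gives a narrower range within it and says that its crosses were kept mainly on C57BL/6. There were 3 libraries precipitated with an antibody against NFIC (Bethyl) and 1 library of input DNA. The list merges the libraries into 1 set of peaks, each 173 bp long, so no value per library, no depth and no spread between replicates stood behind any number below. Whole pancreas holds acinar cells beside ductal, endocrine, vascular and other cells, and the list does not say in which of them a region was bound.

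Zfp genes code for proteins that carry C2H2 zinc fingers, short folds held by a zinc ion that usually read DNA and stand in long arrays. A large branch of the family has a Krüppel-associated box (KRAB) before the fingers. This box recruits the corepressor TRIM28, which brings the histone methyltransferase SETDB1, heterochromatin proteins and deacetylases, and many KRAB proteins silence retrotransposons in this way. KRAB genes multiplied by tandem duplication and lie in clusters. A few genes of the same name code for something else, such as the CCCH proteins Zfp36l1 and Zfp36l2, which bind AU-rich messenger RNAs and hasten their decay. NFIC itself binds as a dimer to the palindrome TGGCNNNNNGCCA.

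The highest scoring promoter peaks of the set are printed first. Sequences are from the mouse genome build mm10 (GRCm38), 5′ to 3′ on the strand of the gene. Capitals mark a full NFI site with at most 1 mismatch over its 8 fixed letters and, near the end of the Zfp2 peak, an 11-letter sequence that is taken up below. The peak of Zfp2 at chr11:50916160-50916332 (minus strand) scored 20.5, and those of Zfp768 at chr7:127346025-127346197 and chr7:127345562-127345734 (minus strand) scored 20.3 and 18.3. The peak of Zfp592 at chr7:80993446-80993618 (plus strand) scored 16.9 and that of Zfp579 at chr7:4996057-4996229 (minus strand) 13.5. The peak of Zfp580 at chr7:5051347-5051519 (plus strand) scored 7.17 and was added after its values were seen, because it holds the NFI palindrome without a mismatch.
Zfp2, 70 bp upstream: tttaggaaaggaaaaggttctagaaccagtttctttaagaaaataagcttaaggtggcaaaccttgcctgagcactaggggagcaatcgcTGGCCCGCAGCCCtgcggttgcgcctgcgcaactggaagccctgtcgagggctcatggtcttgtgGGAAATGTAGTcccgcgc
Zfp768, 797 bp upstream: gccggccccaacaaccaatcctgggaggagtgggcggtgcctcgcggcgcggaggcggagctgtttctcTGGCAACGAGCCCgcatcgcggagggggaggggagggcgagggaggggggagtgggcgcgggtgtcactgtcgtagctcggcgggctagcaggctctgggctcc
Zfp768, 334 bp upstream: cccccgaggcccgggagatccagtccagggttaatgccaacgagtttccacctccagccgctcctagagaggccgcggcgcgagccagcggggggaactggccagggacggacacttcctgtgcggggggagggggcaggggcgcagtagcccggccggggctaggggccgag
Zfp592, 152 bp upstream: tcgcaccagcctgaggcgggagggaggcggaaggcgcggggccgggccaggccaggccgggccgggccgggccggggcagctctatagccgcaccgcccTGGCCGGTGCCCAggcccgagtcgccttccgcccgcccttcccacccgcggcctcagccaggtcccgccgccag
Zfp579, 42 bp upstream: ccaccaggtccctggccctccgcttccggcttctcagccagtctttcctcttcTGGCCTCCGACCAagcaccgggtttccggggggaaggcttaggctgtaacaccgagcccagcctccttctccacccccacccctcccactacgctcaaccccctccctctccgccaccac
Zfp580, 99 bp upstream: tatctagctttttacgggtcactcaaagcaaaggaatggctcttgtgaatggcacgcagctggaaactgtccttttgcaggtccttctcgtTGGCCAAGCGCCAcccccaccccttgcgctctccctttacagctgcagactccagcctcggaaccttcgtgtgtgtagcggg
All of these lie in the class promoter-TSS of the deposited annotation. The second Zfp768 peak has no capitals because no full NFI site was found in it. The printed peaks are not typical of the set. Of the 45 promoter peaks of Zfp genes, 17 held a full NFI site within 200 bp around the centre. The median score of the 45 was 6.97.

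A peak in the promoter, that is with its centre between 1000 bp upstream and the transcription start site (TSS), was listed for 44 of the 137 Zfp genes. This was 32.1% (95% Wilson interval 24.9 to 40.3) against 26.1% of the other genes, a difference of 6.0 percentage points with a Newcombe interval from -1.30 to 14.3. The share was therefore not distinguishable from that of the other genes in this window. It became larger once bases past the TSS were let in. A window that ended 100 bp downstream held a peak for 48.2% of Zfp genes against 33.0%, and a window that ended 1000 bp downstream for 65.7% against 44.6%, a difference of 21.1 points (12.8 to 28.6). Among annotated protein-coding genes with a peak, 87 of 133 Zfp genes and 3721 of 7674 others had one within 1 kb. In the promoter window the counts were 43 of 133 and 2209 of 7674. What part gene type had in the differences was not tested. The trait was not particular to Zfp genes, since 65.0% of the 20 listed Zbtb genes had a peak within 1 kb (related families below). All these intervals cover counting error only, since genes of 1 merged list are not replicates.

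The excess of Zfp peaks over other peaks was largest just past the TSS. Between 0 and 500 bp downstream lay 42 of the 215 peaks, 19.5% against 9.14% of the other peaks (difference 10.4 points, 5.63 to 16.2). Just upstream, between -500 and -1 bp, the shares were 17.2% and 13.5%, and the interval of the difference (-0.813 to 9.31) held 0. In the bin farther upstream that starts at -1000 bp, they were 3.72% and 1.68% (difference 2.04 points, 0.206 to 5.50), from 8 Zfp peaks. Of the ranges with a lower share of Zfp peaks, that from 1 to 10 kb downstream was the one whose interval left out 0, with 6.51% against 12.7% (difference -6.24 points, -8.89 to -2.09). Taking only the nearest peak of each gene, the median absolute distance was 312 bp for Zfp genes (order-statistic interval 185 to 542) and 1944 bp for the others. The signed medians over all peaks were 10 and 177 bp.

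**Figure D1:**
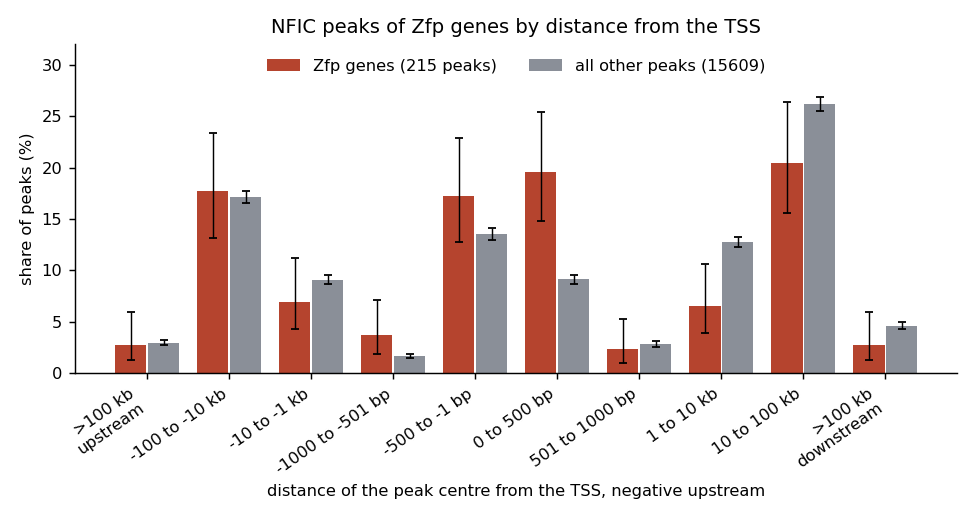
Share of peaks (%) in 10 ranges of distance between peak centre and TSS, for the 215 peaks of Zfp genes (red) and the 15609 other peaks (grey); bars give the share and whiskers its 95% Wilson interval. The red bar is higher from 0 to 500 bp downstream (19.5% against 9.14%) and lower from 1 to 10 kb downstream (6.51% against 12.7%).

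The deposited annotation also gives each peak a class of genomic element. Of the Zfp peaks, 31.6% were in the class promoter-TSS against 20.5% (difference 11.1 points, 5.23 to 17.6), and 28.8% were in introns against 41% (difference -12.1 points, -17.8 to -5.68). Intergenic peaks made up 33.5% and 30.5%, with an interval of the difference from -3.07 to 9.53. Repeats held 11.2% of Zfp peaks and 10.4% of the others, long terminal repeats 3.72% and 3.96%. The intervals of both differences held 0 (-2.86 to 5.65 and -2.09 to 3.22), so that a difference in repeat content was not detectable at this number of peaks. The span of the genes was also compared, since a long gene has more room for an intronic peak. Annotated Zfp genes had a median length of 18 kb against 17.7 kb for other protein-coding genes, and among genes with a peak the medians were 19.3 and 27.6 kb. What part gene length had in the classes was not tested.

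Each peak carries a score on a scale that the sources used here do not state. Its median was 6.77 for Zfp peaks (5.98 to 7.17) and 6.57 for the others. The upper 2 quartiles of score over the whole list, from 6.57 upwards, held 52.1% and 51.6%. The top quartile, from 9.16, held 21.4% of Zfp peaks and 25.6% of the others, and the interval of that difference (-9.18 to 1.82) held 0. Promoter peaks had medians of 6.97 (45 Zfp peaks) and 6.57. The highest score of each gene had a median of 6.77 for Zfp genes and 7.17 for the others, and Zfp genes more often had a single peak, 73.7% against 61.3% (difference 12.5 points, 4.46 to 19.2).

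**Figure D2:**
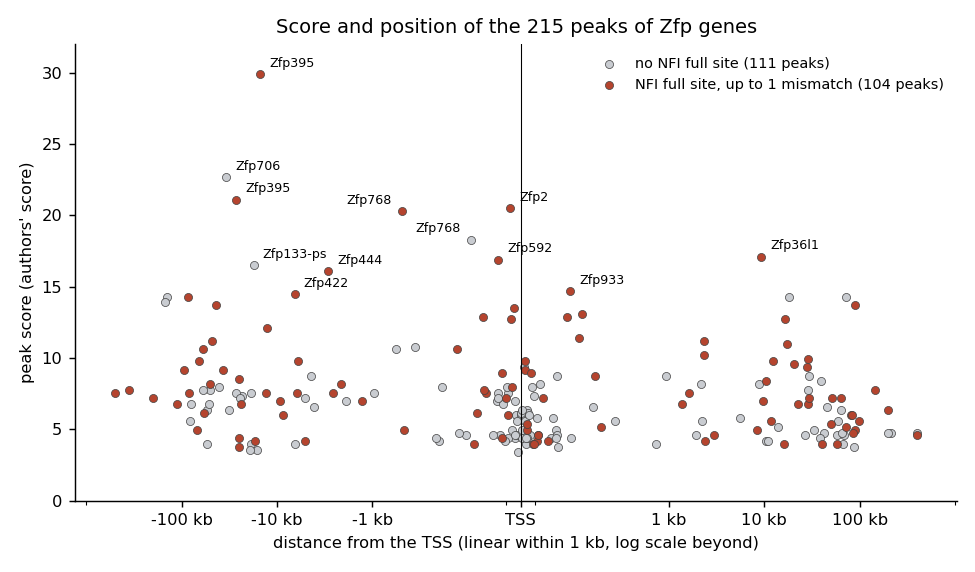
Score of each of the 215 Zfp peaks (vertical axis) against its distance from the TSS (horizontal axis, linear within 1 kb and logarithmic beyond); red points hold a full NFI site with at most 1 mismatch (104 peaks), grey points do not (111 peaks). Most points lie under a score of 10, and the labelled points above it are found both at the TSS (Zfp2, 20.5) and far from it (Zfp395, 29.9).

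The 10 Zfp genes with the highest scoring peak were Zfp395, Zfp706, Zfp2, Zfp768, Zfp36l1, Zfp592, Zfp133-ps, Zfp444, Zfp933 and Zfp422, with top scores from 29.9 down to 14.5. Their peaks did not share a position. Zfp2, Zfp768 and Zfp592 carried theirs in the promoter, and Zfp592 is a chromatin protein that works with Zfp687 and ZMYND8. Zfp933 carried its only peak (14.7) in the first intron, 332 bp past the TSS. The strongest peak of Zfp444 (16.1) lay 2923 bp upstream and that of the pseudogene Zfp133-ps (16.5) 17582 bp upstream. The peak of Zfp422 (14.5), 6546 bp upstream, was annotated to the 3′ UTR of the neighbouring gene Rassf4.

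Among the promoter peaks, scores ran from 3.39 to 20.5. Zfp810 (12.9, 253 bp upstream) completed the 5 highest genes after Zfp2, Zfp768, Zfp592 and Zfp579. The 5 lowest were Zfp719 (3.39, 17 bp upstream), Zfp318 (3.98, 312 bp), Zfp41 (4.18, 105 bp), Zfp61 (4.18, 550 bp) and Zfp189 (4.38, 36 bp). The score of Zfp719 equals the lowest of the whole list. Of the 45 promoter peaks, 3 also had the TSS of another gene within 1 kb: Fiz1 beside Zfp524, Vps9d1 beside Zfp276 and Mrpl50 beside Zfp189. For these the peak cannot be given to 1 of the 2 genes.

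Few Zfp genes had many peaks. There were 101 with 1 peak, 18 with 2, 10 with 3 and 4 with 4, and Zfp750, Zfp608, Zfp706 and Zfp395 had 5, 8, 9 and 10. Genes with 5 or more peaks made up 2.92% of Zfp genes and 4.50% of the others, and the interval of the difference (-3.42 to 2.78) held 0. Zfp395, a gene induced by hypoxia on chromosome 14, had 5 peaks upstream and 5 in its introns. Its strongest peaks were intergenic, 29.9 at 15019 bp upstream and 21.1 at 26692 bp upstream, and its promoter peak 842 bp upstream scored 10.6. The intronic peaks between 1356 and 29613 bp scored 6.77 to 14.3.

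Zfp706 codes for a protein of 76 residues that represses Klf4 in embryonic stem cells. All 9 of its peaks, on chromosome 15, were intergenic and the nearest lay 13848 bp from the TSS. The strongest scored 22.7 at 33983 bp upstream and the next 13.7 at 43192 bp upstream. Zfp608 had 8 peaks between 498452 bp upstream and 89415 bp downstream with scores of 4.98 to 14.3. Zfp750, a regulator of epidermal differentiation, had 5 peaks annotated to introns with scores between 6.77 and 8.17, of which those upstream of its TSS lie in another gene. Zfp536 and Zfp710 had 4 peaks each, the former 145420 bp or more downstream and the latter from 503 to 9769 bp downstream with 1 peak 19415 bp upstream. A peak is assigned to the nearest TSS, so that the distant ones need not act on the Zfp gene.

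**Figure D3:**
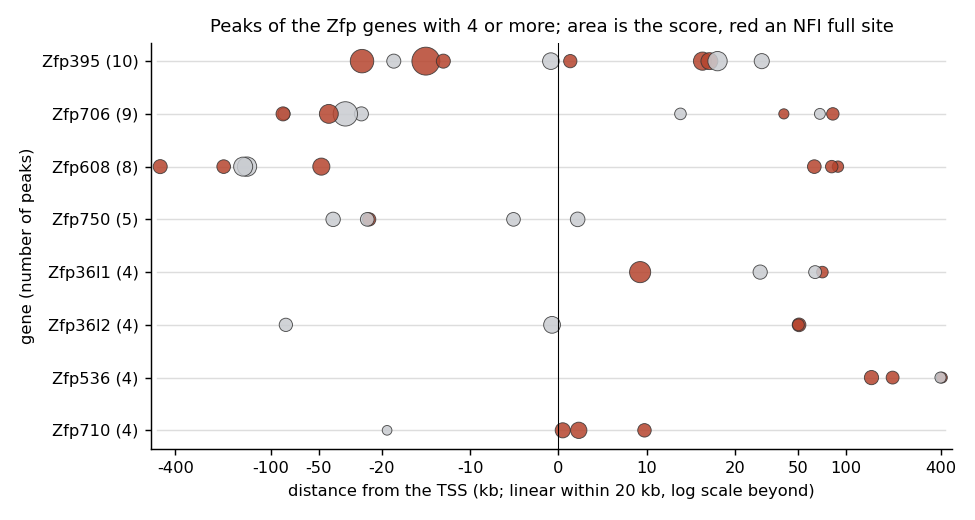
Position (kb from the TSS, linear within 20 kb and logarithmic beyond) of every peak of the 8 Zfp genes with 4 or more peaks; the area of a circle is proportional to its score and red marks a full NFI site. Zfp395 has 10 peaks on both sides of its TSS, and Zfp706 has 9, the nearest 13848 bp away.

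Single peaks far from any TSS were the other extreme. The members whose only peak lay farthest away were Zfp572 (112302 bp upstream, score 6.77), Zfp958 (64751 bp downstream, 4.78), Zfp960 (58642 bp upstream, 6.17), Zfp507 (54952 bp upstream, 3.98) and Zfp148 (42525 bp downstream, 4.78). None of these scores reached the top quartile. The nearest peak lay beyond 10 kb for 21.9% of Zfp genes and 30.9% of the others (difference -8.95 points, -15.1 to -1.26).

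The letters under the peaks were searched in 200 bp around each peak centre, on both strands, for 11 patterns. A full NFI site with at most 1 mismatch was found in 48.4% of Zfp peaks and 51.9% of the others (interval of the difference -10.1 to 3.20). Among peaks within 1 kb of the TSS the shares were 37.0% and 39.0%, and beyond 1 kb 56.9% and 56.7%. Near the TSS the share followed the score in both groups. In the upper 2 quartiles it was 52.5% for Zfp and 52.7% for other peaks, in the lower ones 25% and 26%. In the Zfp peaks the NFI sites sat close to the centre, at a median of 25 bp from it over 109 sites, and at 27 bp in the other peaks. The exact palindrome was the exception, present in 15 Zfp peaks, 6.98% against 13.5% (difference -6.55 points, -9.31 to -2.31). That gap lay in the peaks beyond 1 kb, 7.32% against 16.3%, while within 1 kb the shares were 6.52% and 5.99%.

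**Figure D4:**
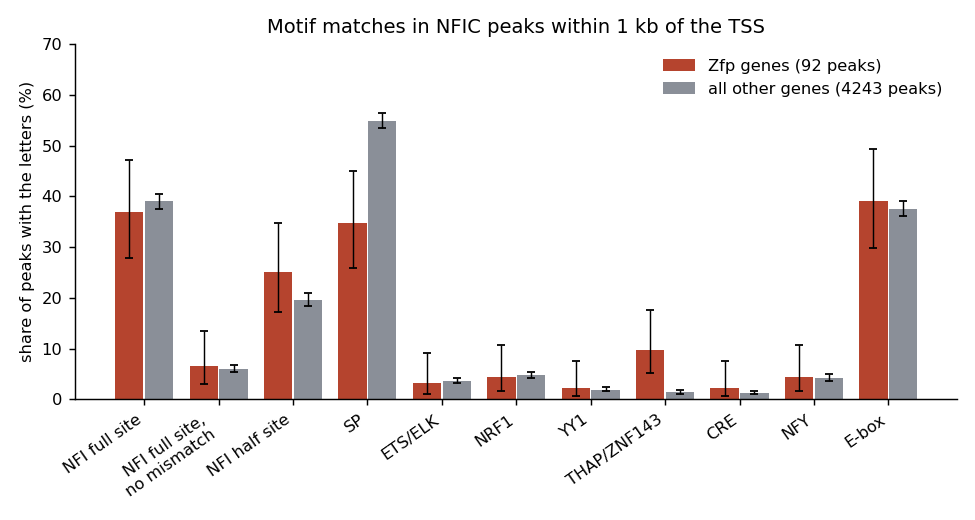
Share (%) of peaks within 1 kb of the TSS that hold each of 11 letter patterns, for 92 Zfp peaks (red) and 4243 other peaks (grey), with 95% Wilson intervals as whiskers. The bars for the full NFI site are level (37.0% and 39.0%), SP is lower in Zfp peaks (34.8% and 54.9%) and THAP/ZNF143 higher (9.78% and 1.37%).

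Within 1 kb of the TSS, 6 Zfp peaks held the exact palindrome, and these were chosen after their values were seen. Those of Zfp933, Zfp606, Zfp120 and Zfp950 lay in first introns, 314 to 417 bp past the TSS, and scored 14.7, 13.1, 12.9 and 11.4, all in the top quartile. All 4 genes carry the KRAB pattern. The others were in the promoters of Zfp580 (7.17) and Zfp33b (4.98). The 43 bases around the palindrome were nearly the same in some of these genes. Zfp950 differed from Zfp120 at 2 of the 43 bases and Zfp933 at 8, whereas Zfp606 differed at 27. A search of mm10 for these 43 bases, with up to 8 differences in all and up to 2 in the 13 letters of the site, found 32 copies on the numbered chromosomes, X and Y. Of these, 17 lay 200 to 800 bp past an annotated TSS, and 6 of the 17 at a Zfp gene. Zfp genes made up 395 of the 21000 annotated protein-coding genes. The 6 include Zfp120, Zfp950 and Zfp933, whose sites led to the search, and nearest genes of other names were not checked for zinc fingers. Nothing is read from this count. The 6 are printed on the strand of the copy, with the 13 letters of the site in capitals.
Zfp120, chr2:150136299-150136341, plus strand: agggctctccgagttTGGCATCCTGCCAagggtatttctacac
Zfp950, chr19:61140441-61140483, plus strand: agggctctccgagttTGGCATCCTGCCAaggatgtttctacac
Zfp933, chr4:147848014-147848056, plus strand: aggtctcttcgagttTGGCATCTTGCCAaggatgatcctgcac
Zfp442, chr2:150451144-150451186, plus strand: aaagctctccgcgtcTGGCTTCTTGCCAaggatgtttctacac
Zfp825, chr13:74493576-74493618, plus strand: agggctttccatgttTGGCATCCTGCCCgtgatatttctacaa
Zfp958, chr8:4613879-4613921, minus strand: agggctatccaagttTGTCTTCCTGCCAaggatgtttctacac
Zfp606 for comparison, chr7:12478678-12478720, plus strand: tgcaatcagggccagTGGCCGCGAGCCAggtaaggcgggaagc
Zfp120, Zfp950, Zfp933 and Zfp442 keep all fixed letters of TGGCNNNNNGCCA, and Zfp825 and Zfp958 have 1 mismatch each. A peak lay over the copies of Zfp120, Zfp950 and Zfp933 and over none of the other 3. Over all 32 copies, 8 kept the palindrome and 5 of these had a peak, while 1 of the 23 with 1 mismatch and 0 of the 1 with more had one. The 5 include the copies of Zfp120, Zfp950 and Zfp933, which were chosen because they hold the palindrome in a peak. These counts therefore cannot show whether an intact palindrome goes with a peak, and nothing is read from them. How reads from such near-identical stretches were placed is not given in the sources used here, and its part in these counts was not tested.

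Promoter peaks of Zfp genes differed from other promoter peaks in GC-rich letters. The SP pattern GGGCGG was found in 14 of 45, 31.1% against 58.9% (difference -27.8 points, -39.5 to -13.1). Their GC content had a median of 58.5% (54.0 to 64.0) against 64.0%, which moved with the pattern, and its part was not tested. In peaks beyond 1 kb the order for SP was the opposite, 13.8% of Zfp peaks against 8.40% (difference 5.42 points, 0.382 to 12.6). The ETS pattern CCGGAAGT was in 0 of 45 Zfp promoter peaks and 4.27% of the others, with an interval of the difference (-5.16 to 3.63) that held 0. The CCAATCA pattern read by NFY was in 2.22% and 5.40%, the interval again holding 0 (-5.25 to 6.20). Over all peaks the ETS pattern was in 2.79% of Zfp peaks and 1.24% of the others (difference 1.55 points, 0.0308 to 4.71), from 6 Zfp peaks. The 11 patterns were compared in several sets of peaks without adjustment for their number. Some intervals can leave out 0 by counting error alone, so little is read from a bound this near 0.

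A pattern that was more frequent in Zfp peaks was the 11-letter core of the element read by THAP11 and by ZNF143, itself a zinc finger protein (Zfp143 in the mouse). Its letters are those in capitals in the Zfp180 line below. With at most 1 mismatch it was present in 8 of 45 Zfp promoter peaks, 17.8% against 1.93% (difference 15.9 points, 7.34 to 29.4), and in 9 of 92 Zfp peaks within 1 kb, 9.78% against 1.37%. Of all 67 peaks within 1 kb of a TSS that held it, 9 belonged to Zfp genes, that is 13.4%, whereas Zfp genes held 2.12% of all peaks in that range. Its position was not that of the NFI sites. The 12 matches in Zfp peaks lay at a median of 71.5 bp from the peak centre, and 96 matches in the other peaks at 46 bp. The 10 matches within 1 kb are printed in the direction of the pattern, which is in capitals. Only Zfp180 had it without a mismatch.
Zfp2, chr11:50916152-50916192, plus strand: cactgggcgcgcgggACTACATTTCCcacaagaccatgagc
Zfp712, chr13:67061200-67061240, plus strand: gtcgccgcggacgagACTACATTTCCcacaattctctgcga
Zfp369, chr13:65278780-65278820, minus strand: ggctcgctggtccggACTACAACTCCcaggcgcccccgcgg
Zfp180, chr7:24081860-24081900, minus strand: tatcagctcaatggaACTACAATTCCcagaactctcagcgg
Zfp607b, chr7:27689361-27689401, plus strand: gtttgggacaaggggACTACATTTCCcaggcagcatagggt
Zfp862-ps, chr6:48504255-48504295, plus strand: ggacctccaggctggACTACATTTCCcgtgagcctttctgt
Zfp263, chr16:3743656-3743696, plus strand: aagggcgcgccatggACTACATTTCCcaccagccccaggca
Zfp189, chr4:49521140-49521180, minus strand: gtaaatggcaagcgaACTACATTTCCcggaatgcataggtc
Zfp189, chr4:49521201-49521241, minus strand: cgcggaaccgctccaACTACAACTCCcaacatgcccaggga
Zfp74, chr7:29954090-29954130, plus strand: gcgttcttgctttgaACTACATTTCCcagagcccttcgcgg
The scores of these 9 peaks had a median of 6.97, and that of the Zfp peaks within 1 kb without the pattern was 5.98. In the other peaks within 1 kb the order was the opposite, 5.88 with the pattern and 6.37 without it, and neither difference was tested.

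The same letters were then counted in the genes' own RefSeq promoters, 300 bp each on GRCm38, whether or not a peak lay there. These promoters covered 329 of the 395 annotated Zfp genes. By class they covered 200 of 229 genes with the KRAB pattern and 119 of 152 other C2H2 genes. The THAP/ZNF143 pattern with at most 1 mismatch was in 16 of 73 promoters of Zfp genes with a peak within 1 kb, 21.9% (14.0 to 32.7), and in 40 of 256 promoters of Zfp genes without one, 15.6% (11.7 to 20.6). Among other genes the shares were 3.85% and 2.55%. The share in Zfp promoters was above that in other promoters with and without an NFIC peak, and the intervals of both Zfp shares overlapped. By protein class it was in 46 of 200 promoters of genes with the KRAB pattern, 23.0%, and in 10 of 119 of the other C2H2 genes, 8.40%. The NFY pattern behaved alike, in 24.7% and 23.4% of Zfp promoters with and without a peak against 10.8% and 10.3% of other promoters. The full NFI site was in 24.7% of Zfp promoters with a peak and 12.1% of those without, and in 29.0% and 15.7% of other promoters. The SP pattern was in 53.4% of Zfp promoters with a peak and 45.3% of those without. In other promoters its shares were 75.3% and 45.2%.

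So far the genes without any peak were not counted. The RefSeq annotation of GRCm38 held 395 protein-coding Zfp genes with a curated transcript among 21000 protein-coding genes. NFIC had at least 1 peak at 133 of the 395, a share of 33.7% (29.2 to 38.5). The background over the remaining 20605 genes was 37.2%, and the interval of the difference ran from -8.10 to 1.27. A promoter peak was listed for 10.9% against 10.7%, and a peak within 1 kb of the TSS for 22.0% against 18.1% (difference 3.97 points, 0.123 to 8.34). Annotated Zfp genes were thus not distinguishable from other genes in the share with any peak or with a promoter peak, and the call within 1 kb rested on the TSS used: with TSSs taken from RefSeq the shares were 23.8% and 20.4%, and the interval of the difference held 0 (-0.559 to 7.89).

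The family was not uniform. Proteins were translated from the RefSeq coding sequences and searched for a C2H2 finger and for a KRAB box by letter patterns, which gave 229 genes with the KRAB pattern, 152 with fingers and no KRAB pattern and 14 without a C2H2 finger. The pattern misses diverged boxes such as that of Zfp180. A peak was listed for 56 of the 229 genes with the KRAB pattern, 24.5% (difference of -22.9 points from the 72 of 152 other C2H2 genes, 47.4%, interval -32.3 to -13.1). For promoter peaks the shares were 8.30% and 15.1% (difference -6.83 points, -14.0 to -0.368), and for peaks within 1 kb 18.3% and 28.9%. Of the 14 genes without a C2H2 finger 5 had a peak.

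The peaks of both classes are described next. The 56 listed genes with the KRAB pattern had 60 peaks, 92.9% of these genes had a single one, and 71.7% of the peaks lay within 1 kb of the TSS. The 72 other C2H2 genes had 133 peaks, 62.5% had a single one, and 33.8% of the peaks lay within 1 kb. Counted per listed gene, so that genes with several peaks weigh no more than others, 75% and 61.1% had a peak within 1 kb (interval of the difference -2.54 to 28.8) and 33.9% and 31.9% a promoter peak (-13.9 to 18.2), and both intervals held 0. Median scores were 5.58 and 6.97. Gene length had close medians of 18 and 18.6 kb, but its quartiles were 13.2 and 27.1 kb against 10.8 and 39.5 kb. What part gene length had in the difference was not tested.

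**Figure D5:**
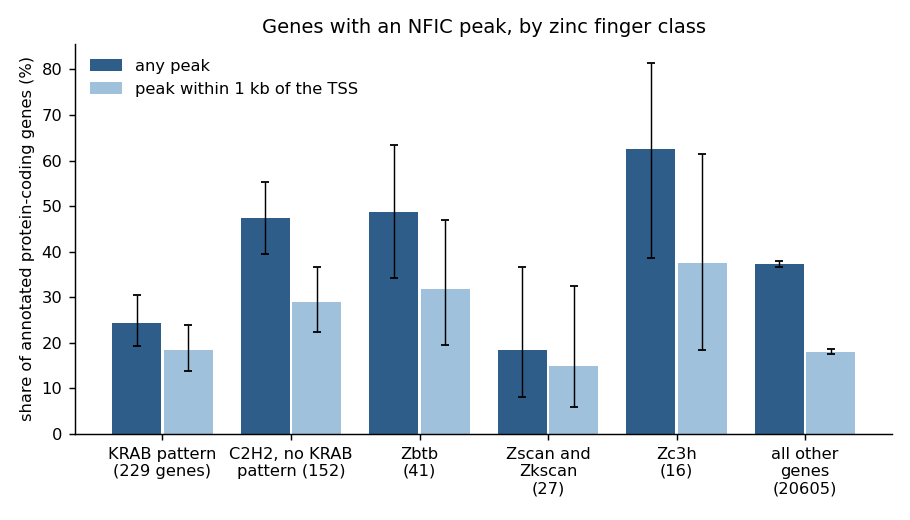
Share (%) of annotated protein-coding genes with any NFIC peak (dark) and with a peak within 1 kb of the TSS (light), by zinc finger class, with 95% Wilson intervals as whiskers and the number of genes under each pair. Genes with the KRAB pattern stand at 24.5% for any peak, other C2H2 Zfp genes at 47.4% and all genes other than Zfp, the 3 related families included, at 37.2%.

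KRAB genes lie in clusters, so the classes were also compared inside and outside them. Another Zfp gene had its TSS within 100 kb for 219 of the 395 genes, and 27.4% of these had a peak against 41.5% of the 176 others (difference -14.1 points, -23.3 to -4.67). Within clusters, 23.9% of genes with the KRAB pattern and 42.9% of other C2H2 genes had a peak, and outside clusters 26.4% and 49.1%. The difference between the classes was -19.0 points within clusters (-35.0 to -3.66) and -22.7 points outside (-36.3 to -6.64). The latter rested on 53 genes with the KRAB pattern. What part clustering had in the difference was not tested. For promoter peaks the difference between the classes was -15.9 points within clusters (-30.9 to -4.40) and -2.38 outside, where the interval held 0 (-11.5 to 9.44). By chromosome, 34 of 93 Zfp genes on chromosome 7 had a peak, 36.6%, and 14 a promoter peak, the highest numbers of both on the chromosome with the most Zfp genes. This share was near the 33.7% of all annotated Zfp genes, and chromosomes 6 and 11 had higher ones, 8 of 17 and 10 of 21. On chromosome 13, 6 of 36 had a peak, on chromosome 17, 14 of 46, and on chromosome 2, 8 of 27 with no promoter peak. The X chromosome had 1 of 9.

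Named members with a known role were examined next, in a list of 34 genes, of which 18 had a peak, 8 a promoter peak and 10 a peak within 1 kb. The background shares over protein-coding genes other than Zfp were 37.2%, 10.7% and 18.1%, and since the genes were picked for their known roles, the counts are a description. Among the guardians of imprinting and silencers of retroviruses, Zfp445, which protects imprinted marks, had 2 peaks 29031 and 28107 bp downstream (9.96 and 9.36). No peak was listed for its partner in that task Zfp57, for Zfp809, which silences murine leukaemia viruses, for Zfp568, which represses a placental Igf2 transcript, or for Zfp932. Zfp638, an adipogenic cofactor, had a peak of 4.58 at 26 bp upstream. Zfp42, the pluripotency marker Rex1, had none. Zfp281, also of the pluripotency network, had 4.78 at 414 bp upstream and 7.37 at 23345 bp upstream, and its paralogue Zfp148 only its distant peak.

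For the CCCH decay factors, Zfp36l1 had 4 peaks, of which 17.1 at 9276 bp downstream was the highest, and Zfp36l2 had 4, with 10.8 at 711 bp upstream. Zfp36 itself, tristetraprolin, had none. The adipocyte regulators Zfp423, Zfp521 and Zfp516 had none, nor had Zfp143, Zfp106, Zfp110, Zfp91, Zfp830, Zfp69 or Zfp385a. Zfp369, which interacts with the p75 neurotrophin receptor, had 7.97 at 95 bp upstream. Zfp598, the ubiquitin ligase that senses collided ribosomes, had 4.58 at 66 bp past the TSS. Zfp326, which couples splicing to elongation, had 3 upstream peaks of 14.3, 10.6 and 5.98, and all 3 held a full NFI site.

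The other members of the list had 1 or 2 peaks apart from Zfp750. Those of Zfp263 (4.58, 371 bp upstream), Zfp868 (5.98, 82 bp), Zfp697 (6.17, 1 bp) and Zfp318 were in the promoter. Zfp64 had 5.78 in its 5′ UTR at 217 bp. Zfp703, a factor amplified in luminal breast cancer, had 11.2 in an exon 2339 bp downstream and 4.98 at 69359 bp upstream. Zfp335 had 12.1 at 12843 bp upstream, and Zfp207, a spindle protein, 4.98 at 8399 bp downstream. Of the 8 promoter peaks of the list, 2 (Zfp318 and Zfp868) held a full NFI site.

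The corepressors through which KRAB proteins act were taken from a list of 24 genes, of which 8 had a peak, 2 a promoter peak and 4 a peak within 1 kb. Beside the background shares of 37.2%, 10.7% and 18.1%, nothing is read from these counts. The scaffold Trim28 and the methyltransferase Setdb1 had none, nor had the heterochromatin proteins Cbx1, Cbx3 and Cbx5, the remodeller Chd4, the deacetylase Hdac1 or the DNA methyltransferase Dnmt1. The SETDB1 partner Atf7ip had 3 peaks, with 5.58 at 214 bp upstream. Dnmt3a had 9, with 8.56 at 157 bp upstream, and Dnmt3b had 1 (5.98). Chd3, of the NuRD complex, had the highest score of these genes, 32.9. Hdac2 had 10.4 at 646 bp and Atrx 4.18 at 176 bp past the TSS, and Morc2a and Fam208a of the HUSH pathway had 4.78 at 26568 bp downstream and 6.97 at 26172 bp upstream. No peak was listed for Uhrf1, Smarcad1, Mphosph8, Pphln1, Trim24, Trim33, Daxx or Resf1.

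Related zinc finger families gave a frame for the Zfp genes. A peak was listed for 20 of 41 Zbtb genes, whose BTB domain dimerizes, 48.8% (34.3 to 63.5), beside the background of 37.2%, which the interval held. The SCAN-domain genes named Zscan or Zkscan had 5 of 27, 18.5% (8.18 to 36.7), and the CCCH genes named Zc3h 10 of 16, 62.5% (38.6 to 81.5). The interval of the Zscan and Zkscan share lay just below the background of 37.2%, and that of the Zc3h share just above it. Within 1 kb of the TSS a peak was listed for 13 of 41 Zbtb genes, 31.7% (19.6 to 47.0). This interval lay above the background of 18.1%. Such a peak was listed for 4 of 27 Zscan and Zkscan genes and for 6 of 16 Zc3h genes. Over listed genes only, the share within 1 kb was 65.0% of 20 Zbtb genes (43.3 to 81.9). It was 80% of 5 Zscan and Zkscan genes (37.6 to 96.4), and 6 of the 10 listed Zc3h genes had such a peak. The 65.7% of listed Zfp genes lay within both intervals. For any peak, the interval of the Zbtb share overlapped that of the C2H2 Zfp genes without a KRAB pattern (39.6 to 55.3). It lay above that of the Zfp genes with the pattern (19.3 to 30.4), which the interval of the Zscan and Zkscan share overlapped.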

How the data were processed

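NFIC ChIP-Seq of mouse pancreas (3 ChIP libraries, 1 input library) was deposited as 1 merged peak list, and no column held values of a single library. The authors made the list on mm10. Its header names HOMER annotatePeaks.pl, and the submitters' processing notes name BWA, Picard and MACS2 without roles. Versions, thresholds and how reads with several matches were placed are not given in the sources used here. Each peak has the authors' score, whose scale is not stated, a deposited focus ratio (a fraction), and the authors' distance to the nearest TSS in bp. Depth is unknown, and a merged list gives no spread between samples.

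Gene names, classes, distances and scores were used as deposited, and no count test was run. Shares were given with 95% Wilson intervals, differences with Newcombe intervals and medians with order-statistic intervals, all for counting error only. None was adjusted for the number of comparisons. Annotation, sequences and promoters came from NCBI RefSeq on GRCm38, the build of the list: all 215 Zfp peaks matched a RefSeq transcript, and 203 distances were equal within 2 bp. Proteins were translated from RefSeq coding sequences. The KRAB pattern was loosened once after a look at the gene names it matched. Motif counts used 200 bp around the peak centre. The scripts (Python 3.11, scipy 1.17.1, pysam 0.24.0) were tested on simulated data. Named genes were the 10 members with the highest scoring peak, those with the most peaks until at least 5 were reached (ties kept), the 5 highest and 5 lowest scoring promoter-peak members, the 5 whose only peak lay farthest away, and every gene of both lists. Members and lists were chosen with earlier results of these data known, and the copies of the 43 bases around the Zfp120 site were looked for after its values were seen. Alternatives covered the window, score quartiles, TSS source, motif mismatches and clustered genes.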

Additional observations from a re-analysis of the deposited data

How the results depend on the processing

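Of 40 alternatives over 15 results, 23 stayed within the interval of the main value and 16 moved out of it. The remaining 1, a count, changed by over 1.5 times. Only the differences by protein class and by clustering could turn direction, and no alternative turned them. The other results were shares, medians or counts of a single set, in which no direction could turn. No paired analysis was possible because the list holds no value per library, and leaving out a replicate was not run for the same reason. The share of listed Zfp genes with a promoter peak moved to 48.2% with a window ending 100 bp past the TSS, 65.7% with one ending at 1000 bp, and 48.9% with the promoter-TSS class. Among annotated Zfp genes the promoter share became 22.0% in the window ending at 1000 bp. With only the upper 2 quartiles of score it became 5.57%, the share with any peak 17.7% (other genes 21.9%) and the median distance -153 bp. The intergenic share became 41.1%, the NFI share 60.7%, and the number of corepressor genes with a peak 5. Only the share with any peak is given here beside that of other genes under this filter. For the rest, a shift of the Zfp genes cannot be told from the effect of the filter. With 1 peak per gene, the highest scoring, 43.1% were in the class promoter-TSS and 25.5% intergenic. The NFI share was 6.98% with no mismatch and 37.8% in promoter peaks. The difference in promoter share between KRAB and other C2H2 genes was -14.7 points by RefSeq TSS. The THAP/ZNF143 pattern was in 1.09% of Zfp peaks within 1 kb with no mismatch (other peaks 0.236%) and in 17.8% of promoter peaks. The alternatives for this pattern, for any peak by protein class, for the cluster distance, for Zbtb and for the corepressors were chosen after seeing the data. The difference in any peak between KRAB and other C2H2 genes ran from -25.2 to -17.6 points over its alternatives.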
